A study of Mus musculus with 8 samples.

Results

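The type I interferon response genes measured here were 43 named mouse genes that cells switch on when interferon signals, taken by symbol from a table of 32108 genes, in which all 43 were found. Their levels were followed in mouse embryonic fibroblasts of the 4F2A strain, which carry doxycycline-inducible transgenes for the factors used to make induced pluripotent stem cells. The cells came from homozygous male embryos at 13.5 days post coitum and were grown with 1000 U/mL LIF, KnockOut serum replacement and 2 µg/mL doxycycline, which was given from day 0. RNA was taken after 2, 4, 6 and 8 days (D2, D4, D6 and D8), with 2 libraries a day and 8 in all. All 4 groups therefore share the strain, the doxycycline and the medium, and the sample titles mark every one of them Ctr. No sample without doxycycline and none of day 0 was analysed here, so every change below is between days of the same treatment, and time in culture and doxycycline cannot be told apart. The labels speak of parallel replicates and do not say whether these were separate cultures, so p-values measure the spread between these libraries, which may be technical.

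Type I interferons are secreted proteins that bind a receptor of the chains Ifnar1 and Ifnar2. The receptor's kinases Jak1 and Tyk2 phosphorylate Stat2, which acts in a complex with Irf9 that binds a short DNA motif, the interferon-stimulated response element, upstream of the induced genes. The induced proteins sense foreign RNA and DNA, block translation, degrade RNA, deplete nucleotides and attack the membranes around pathogens. Fibroblasts are a classic source of interferon beta and respond to it.

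Values are CPM, a gene's reads scaled by the counted reads of the library, and a change between days is a difference of mean log2(CPM + 1), which understates the change of low genes. The libraries held 19409936 to 20161021 counted reads, so 3 reads, the limit that a count of 0 allows, equal 0.149 to 0.155 CPM. This limit covers counting error only. Each comparison was read from 1 limma fit over 15358 genes with Benjamini-Hochberg adjustment, and "rose" and "fell" mean an adjusted p under 0.05. All 10 fibroblast markers listed, among them Col1a1, Pdgfra and Vim, were detected in each library, with summed levels of 25848 to 44057 CPM. The 16 macrophage and haematopoietic markers summed to 109 to 166 CPM, and the 6 plasmacytoid dendritic and lymphoid markers to 0.150 to 0.639 CPM, with Nkg7 at 0 in every library. The 5 endothelial markers summed to 68.9 to 165 CPM, nearly all of it Tek, while Cldn5 was at 0 in 7 libraries and Cdh5 between 0.0992 and 0.448 CPM.

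The response element is the motif that the complex with Irf9 binds, so a stretch of promoter is printed for some members whose levels are described below. RefSeq promoter windows (GRCm38.p6, 250 bases before to 50 bases after the start site) were matched by symbol for 32 of the 43 members. Each was searched on both strands for the core GAAANNGAAA (TTTCNNTTTC on the other strand), with overlapping matches counted. In the stretches of 110 bases below, which lie wholly before the start site, the capitals mark cores, and overlapping cores run together. Samhd1 and Lgals3bp are shown as members with no core in the window. Others without a core, not shown, include Oasl2, Cmpk2 and Irf7, which rose by 5.36, 3.84 and 3.48 between D2 and D4. They also include Trim25 and Adar, which rose by 1.16 and 1.06.
Isg15 (chr4:156200831-156200940, reverse strand): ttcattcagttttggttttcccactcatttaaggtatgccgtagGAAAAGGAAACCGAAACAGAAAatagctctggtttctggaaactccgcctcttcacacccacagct
Ifit1 (chr19:34640744-34640853, forward strand): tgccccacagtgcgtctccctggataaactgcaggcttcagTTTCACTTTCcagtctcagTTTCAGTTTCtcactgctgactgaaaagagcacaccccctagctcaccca
Ifit3 (chr19:34583340-34583449, forward strand): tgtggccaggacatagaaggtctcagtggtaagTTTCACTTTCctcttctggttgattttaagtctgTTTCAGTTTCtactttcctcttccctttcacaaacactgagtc
Oas1a (chr5:120907526-120907635, reverse strand): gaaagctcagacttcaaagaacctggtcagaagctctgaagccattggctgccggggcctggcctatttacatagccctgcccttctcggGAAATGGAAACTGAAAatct
Oas3 (chr5:120777675-120777784, reverse strand): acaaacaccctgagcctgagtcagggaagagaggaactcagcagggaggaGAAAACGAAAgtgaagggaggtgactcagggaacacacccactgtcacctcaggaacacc
Gbp3 (chr3:142559934-142560043, forward strand): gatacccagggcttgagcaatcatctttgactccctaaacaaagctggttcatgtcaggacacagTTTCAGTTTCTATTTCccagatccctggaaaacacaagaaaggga
Irgm1 (chr11:48871421-48871530, reverse strand): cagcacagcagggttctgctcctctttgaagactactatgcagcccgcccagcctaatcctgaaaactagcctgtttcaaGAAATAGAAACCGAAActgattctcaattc
Bst2 (chr8:71537540-71537649, reverse strand): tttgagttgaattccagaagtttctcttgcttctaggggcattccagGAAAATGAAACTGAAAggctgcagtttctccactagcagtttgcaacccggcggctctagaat
Rsad2 (chr12:26456513-26456622, reverse strand): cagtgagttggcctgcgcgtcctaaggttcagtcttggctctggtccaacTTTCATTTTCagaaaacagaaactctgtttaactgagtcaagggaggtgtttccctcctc
Samhd1 (chr2:157135097-157135206, reverse strand): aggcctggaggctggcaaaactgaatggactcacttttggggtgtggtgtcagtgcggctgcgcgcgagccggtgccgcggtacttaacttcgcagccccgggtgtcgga
Lgals3bp (chr11:118401960-118402069, reverse strand): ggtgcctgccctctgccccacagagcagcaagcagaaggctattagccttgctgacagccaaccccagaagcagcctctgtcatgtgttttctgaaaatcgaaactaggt

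The core was found in 17 of the 32 matched members, or 53.1%, against 3.99% of the 27025 genes with a window. At least 2 cores stood in the window of 8 members, or 25%, against 0.266% of all genes. Isg15 held 3 overlapping cores in 1 run. The printed stretches of Ifit3 and its neighbour Ifit3b were the same, with 0 of 110 bases different, so only the Ifit3 copy is given. A match describes the letters only and does not show that a factor binds there. Cores were found in 6 of 13 matched members that rose between D4 and D8, in 4 of 7 that fell and in 7 of 12 that were not called.

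**Figure D1:**
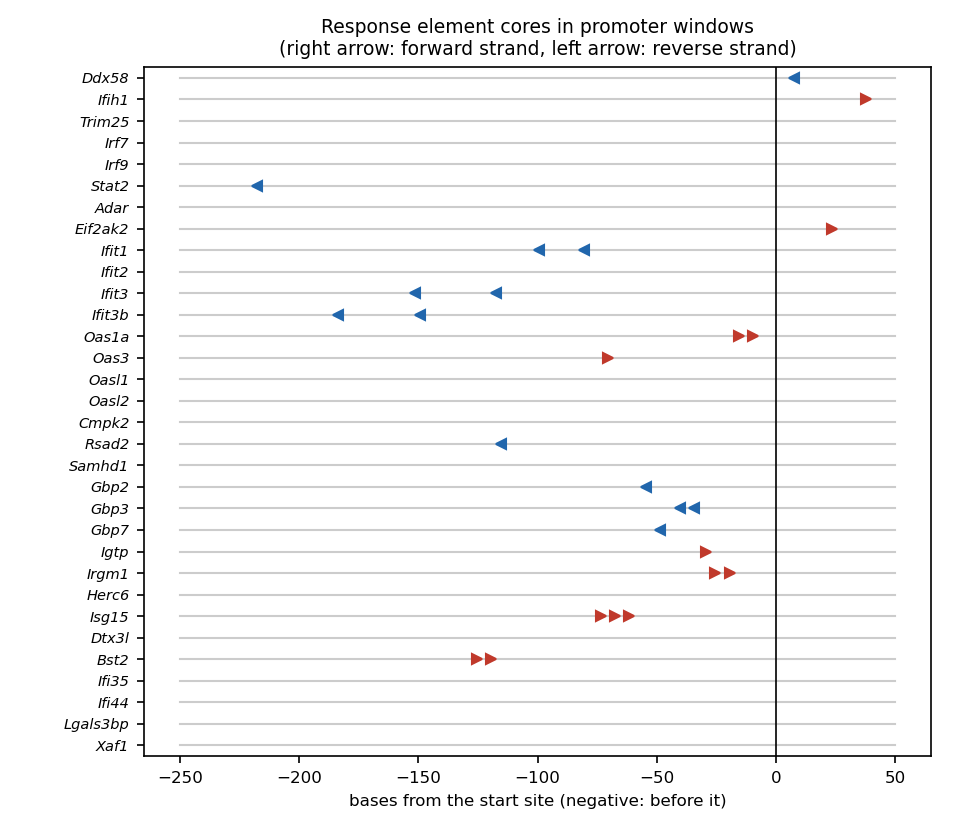
Position of each response element core in the promoter windows of the 32 matched members, in bases from the start site, with right arrows for the forward strand and left arrows for the reverse strand. Isg15 carries 3 cores, and members such as Oasl2, Cmpk2 and Lgals3bp show none in the window.

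Between D2 and D4, 42 of the 43 members rose and 0 fell, while 40.9% of all tested genes rose and 21.7% fell. At an unadjusted p under 0.05 in limma, the fallen members also numbered 0. The median change was 2.83 on the log2 scale, from -0.08 for Samhd1 to 5.45 for Ifit3, against a median of 0.11 over all tested genes. The mean CPM was at least 4 times higher for 34 members, which held for 3.35% of all tested genes. All 43 members passed the filter on low values, and 10 of them would not have done so on D2 alone. Of the 33 that passed on D2 alone, 32 rose, against 39.6% of the 14095 genes at 1 CPM or more in each D2 library. Together the members took 0.0493% and 0.0505% of the reads on D2 and 0.263% and 0.229% on D4. In bulk RNA a larger share of responding cells and more RNA per responding cell cannot be told apart. Marker genes of cell types moved over the same days. Of the 10 fibroblast markers, 8 rose and 2 fell between D2 and D4. Lum rose by 5.20, Pdgfra rose by 2.46 and Vim fell by 0.47, and the sum of the 10 went from 25848 and 25850 CPM on D2 to 40664 and 44057 on D4. The endothelial sum went from 68.9 and 71.3 CPM on D2 to 104 and 104 on D4, 159 and 147 on D6, and 163 and 165 on D8. In it Tek rose by 0.63 and Kdr fell by 1.03 between D2 and D4. The part of these shifts in the members' rise was not tested. The 42 rises were also called under each alternative run, including median-of-ratios scaling and quantile normalization. Those scalings moved the all-gene median from 0.11 to 0.01 and -0.03 and the split of all tested genes to 33.1% rose and 30% fell, and to 28.7% and 32.3%.

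**Figure D2:**
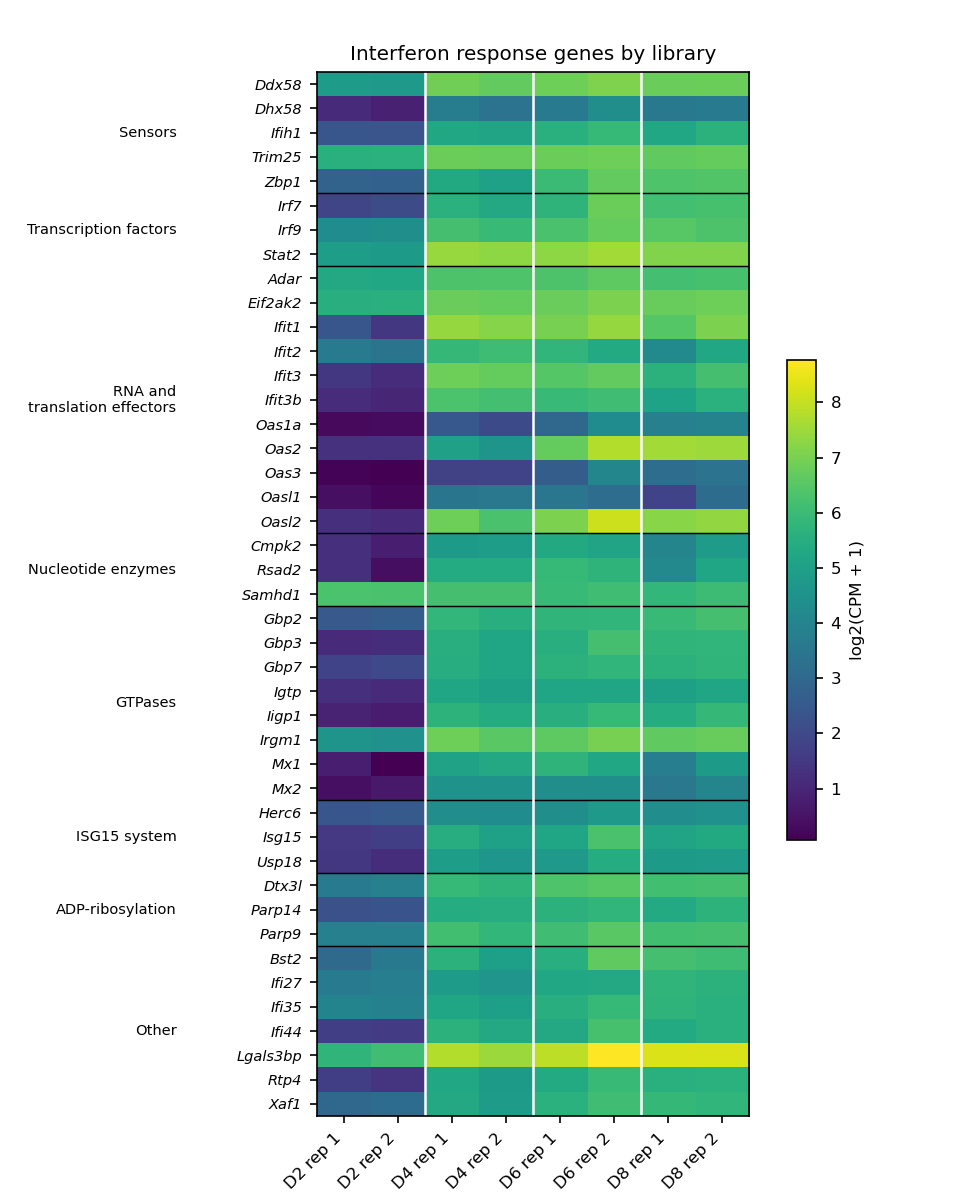
Level of each of the 43 members, as log2(CPM + 1), in the 8 libraries, grouped by role, with lighter colours for higher levels. The D2 columns are darker than the D4 columns for 42 members, Samhd1 being the exception, and D6 replicate 2 is the lightest library for Lgals3bp, Oasl2, Isg15 and Irf7.

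The interferon genes themselves were scarcely counted. Of 21 ligand genes, 0 reached the level for testing. Ifnb1, the interferon of fibroblasts, was at 0 in 7 libraries and had 1 read (0.0512 CPM) in D6 replicate 2, under the limit that a count of 0 allows. Leaving out Ifnz, the ligands summed to 0 to 4 reads in a library. Ifnz, an interferon zeta gene, stood between 0.491 in D8 replicate 1 and 0.896 CPM in D2 replicate 1.

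RNA of both receptor genes was present throughout and changed little. Ifnar1 was at 69.97 and 68.9 CPM on D2 (replicates 1 and 2, the order used throughout), 81.6 and 77.7 on D4, 70.6 and 68.5 on D6, and 61.1 and 65.7 on D8. It rose by 0.20 between D2 and D4 (adjusted p = 0.0074, limma), a call that was lost with median-of-ratios scaling (0.09) and quantile normalization (0.13), and fell by 0.33 between D4 and D8 (adjusted p = 0.00031, limma). Ifnar2 was at 42.7 and 41.6 CPM on D2 and at 48.7 and 52.9 on D4, and its rise of 0.26 was lost with quantile normalization (0.12) but not with median-of-ratios scaling (0.16). A list of 9 receptor chains and kinases also held those of interferon gamma and lambda. Of these 9, 5 rose and 3 fell between D2 and D4, where 40.9% of all tested genes rose and 21.7% fell. Their median change was 0.24, against 0.11 over all tested genes. The kinase Jak1 fell by 0.31, from 302 and 301 CPM to 241 and 246. The kinase Tyk2 moved from 26.6 and 25.8 CPM to 45.2 and 44.1, and Jak2, a kinase of other cytokine receptors, from 65.8 and 70.4 to 47.4 and 46.1.

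All 3 transcription factor members rose between D2 and D4. Stat2, the signal-carrying factor of the complex with Irf9, was at 28.8 and 27.0 CPM on D2, 172 and 156 on D4, 154 and 189.5 on D6, and 139.5 and 139 on D8. The D2 libraries lay far below the other 6, a 5.87-fold step to D4 (log2 change 2.51 ± 0.08, SE, adjusted p = 3.6e-11, limma). Irf9, which gives the complex its DNA contact, rose from 18.6 and 20.05 to 73.3 and 60.4 CPM. Irf7, which drives the interferon alpha genes, was at 2.73 and 3.19 CPM on D2 and 47.9 and 38.7 on D4, 14.6-fold higher. On D6 its libraries parted, at 51.7 and 112 CPM, and D8 lay between them at 71.5 and 74.0. Reads of Irf7 and Phrf1, which lie on opposite strands, and of Irf9 and Rnf31 can be confused where the genes overlap, since the strand setting of the counting is not given in the sources used here. Irf1, which is no member and belongs to the family of Irf7 and Irf9, stayed between 23.0 and 26.1 CPM in the 8 libraries, with a change of 0.03 between D2 and D4 that was not called.

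The 5 sensors and their regulators rose together between D2 and D4. Ddx58, which encodes the RNA sensor RIG-I, was at 27.9 and 26.5 CPM on D2 and 116 and 101 on D4, and then at 109 to 135 in the D6 and D8 libraries. Ifih1, the long double-stranded RNA sensor MDA5, went from 4.27 and 4.13 to 37.4 and 34.8 CPM and rose again to 47.7 and 59.1 on D6. Dhx58, the regulator LGP2, moved from 1.22 and 0.822 to 12.4 and 9.39 CPM. Trim25, the ubiquitin ligase that acts with RIG-I, changed least of the 5, from 47.7 and 48.2 to 110.3 and 106 CPM. Zbp1, a sensor of Z-form nucleic acid that can trigger cell death, was the only one of these 5 members called as risen between D4 and D8. It stood at 6.15 and 5.78 CPM on D2, 40.3 and 32.0 on D4, 63.5 and 102 on D6, and 82.2 and 84.0 on D8, with no overlap between D4 and D8 (log2 change 1.19 ± 0.16, SE, adjusted p = 5.2e-05, limma). Of 13 other sensing genes and adaptors tested, 8 rose and 0 fell between D2 and D4, with a median of 0.40. Over all tested genes 40.9% rose and 21.7% fell. Between D4 and D8, 6 of the 13 rose and 3 fell, against 30.7% and 18.3% of all tested genes. Aim2, on this list, went from 8.43 and 7.73 CPM on D4 to 23.3 and 19.0 on D8. Tlr3, an endosomal RNA receptor, moved from 4.19 and 4.61 to 23.3 and 23.5 CPM, and Ikbke, a kinase that activates Irf3 and Irf7, from 23.2 and 24.3 to 65.7 and 63.3. Irf3 itself rose by 0.45, from 32.3 and 32.1 to 43.5 and 45.2 CPM.

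The 11 effectors that act on RNA or translation all rose between D2 and D4, with a median change of 3.18. The Ifit genes encode proteins that bind viral RNA ends and block translation, and the 4 members lie within 100000 bases of one another on chromosome 19. Ifit1 (chr19:34640871-34650009) was at 4.23 and 1.82 CPM on D2, 165 and 145 on D4, 126 and 165 on D6, and 87.9 and 133 on D8. D4 was 51.2 times D2, and D8 replicate 1 lay below every D4 and D6 library. Ifit3 stood at 1.76 and 1.25, 113 and 103, 86.9 and 102, then 50.1 and 73.0 CPM. Both D8 libraries lay below all 4 of D4 and D6, and the fall from D4 to D8 was 0.83 ± 0.14 (SE, log2 change -0.83, adjusted p = 0.00043, limma). Ifit2 stood at 11.2 and 9.66, 57.2 and 65.2, 54.7 and 41.1, then 17.3 and 38.3 CPM, so that D8 replicate 1 lay nearest to D2. Ifit3b followed Ifit3 at a lower level, and since these copies are near-identical, reads may have been split between them.

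The Oas proteins make 2′-5′ oligoadenylate, which activates the nuclease RNase L, and their genes took another course after D4. Oas2 was at 1.49 and 1.49 CPM on D2, 32.3 and 22.9 on D4, 104 and 218 on D6, and 189.7 and 181 on D8. Each D6 and D8 library exceeded each D4 library, and D8 was 6.72 times D4 (log2 change 2.72 ± 0.24, SE, adjusted p = 1.2e-06, limma). Oas1a was at 0.223 and 0.249, 4.49 and 3.04, 6.84 and 18.7, then 13.6 and 14.5 CPM. Oas3 was counted at about 2 reads and 1 read on D2 (0.109 and 0.0548 CPM), at 2.48 and 2.50 CPM on D4, 5.24 and 15.6 on D6, and 7.996 and 9.47 on D8. Oasl2, an Oas-like gene, rose from 1.39 and 1.16 to 113 and 75.3 CPM and reached 131 and 277 on D6 and 149 and 164 on D8. Its neighbour Oasl1 went the other way after D4, from 9.84 and 10.7 CPM to 2.52 and 7.79 on D8, after 0.347 and 0.149 on D2. The remaining members of the group, Eif2ak2 (the kinase PKR, which halts translation) and Adar (which edits double-stranded RNA), started high, at 44.5 and 47.5 and at 39.0 and 38.2 CPM. They were 2.33 and 2.11 times higher on D4.

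**Figure D3:**
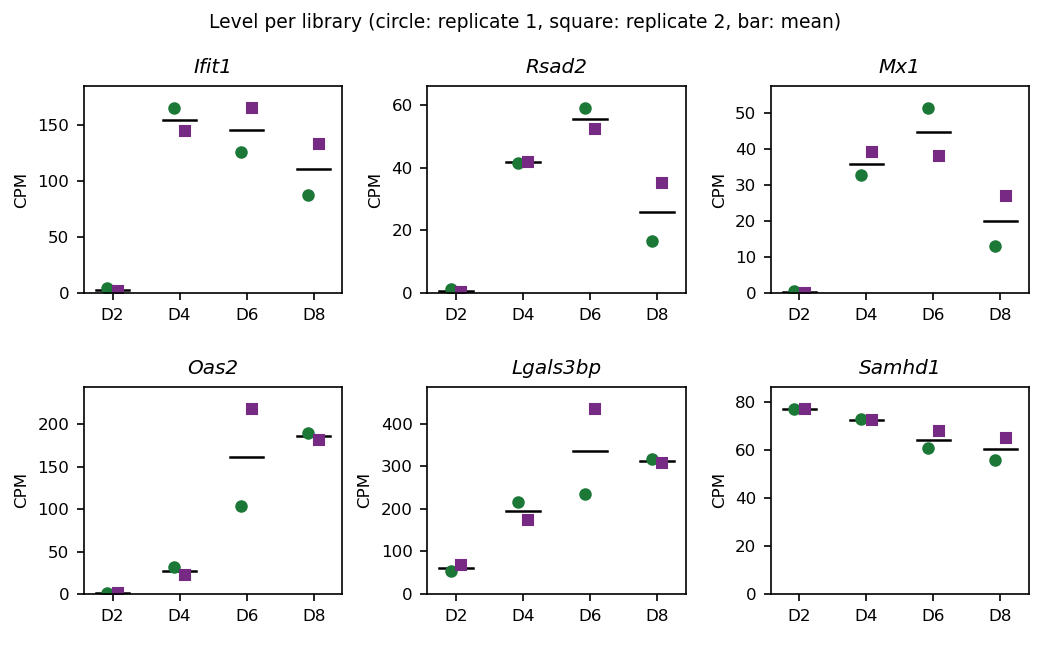
CPM of Ifit1, Rsad2, Mx1, Oas2, Lgals3bp and Samhd1 in each library by day (circles for replicate 1, squares for replicate 2, bars for the mean of 2). Ifit1, Rsad2 and Mx1 stand lower on D8 than on D6 on average, Oas2 climbs from 27.6 on D4 to 185 on D8, and Samhd1 drifts from 77.1 on D2 to 60.5 on D8.

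Of the 3 members that act on nucleotides, 2 rose and Samhd1 did not. Rsad2 encodes viperin, which makes a chain-terminating nucleotide from CTP, and Cmpk2 encodes the nucleotide kinase that supplies it. They lie head to head, 12751 bases apart on chromosome 12. Rsad2 was at 1.44 and 0.299 CPM on D2, 41.6 and 41.8 on D4, 59.0 and 52.2 on D6, and 16.7 and 35.3 on D8. Both D8 libraries were below all D4 and D6 libraries and above D2. Cmpk2 stood at 1.44 and 0.747, 27.1 and 30.1, 39.7 and 34.8, then 15.3 and 27.8 CPM. Samhd1, which degrades deoxynucleotides, was at 77.3 and 77.0 CPM on D2, 73.0 and 72.4 on D4, 60.8 and 68.1 on D6, and 55.8 and 65.2 on D8. Its change between D2 and D4 was -0.08 and was not called (adjusted p = 0.33, limma), although with median-of-ratios scaling it was -0.19 and called. It fell by 0.35 between D2 and D8 (adjusted p = 0.00074, limma).

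The 8 GTPases rose between D2 and D4 with the highest median of any role, 3.93. The Mx proteins trap viral nucleocapsids. Mx1 was at 0.744 and 0.0498 CPM on D2 (15 reads and 1 read), 32.6 and 39.2 on D4, 51.3 and 37.9 on D6, and 12.99 and 26.8 on D8. Mx2, head to head with it on chromosome 16, was at 0.347 and 0.598, 22.1 and 21.6, 19.6 and 20.03, then 10.7 and 15.3 CPM. For both genes the D8 libraries lay under all D4 and D6 libraries. The guanylate-binding proteins attack the vacuoles and membranes of pathogens. Gbp2 moved from 4.69 and 5.15 CPM on D2 to 55.4 and 44.5 on D4 and 60.0 and 73.2 on D8, Gbp3 from 1.14 and 1.29 to 45.8 and 35.3 and then 53.4 and 54.6. Gbp2, Gbp3 and Gbp7 each rose between D4 and D8, by 0.41, 0.42 and 0.36, though the Gbp3 call was lost with both scalings. The immunity-related GTPases Igtp, Irgm1 and Iigp1 rose by 3.89, 2.18 and 4.72 between D2 and D4 and were not called between D4 and D8. Igtp overlaps Irgm2 on the same strand, so their reads can be confused.

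Isg15 encodes a ubiquitin-like protein that is attached to other proteins. It stood at 1.86 and 2.24 CPM on D2, 43.4 and 32.0 on D4, 35.2 and 75.7 on D6, and 34.2 and 39.9 on D8. D4 was 18.4 times D2 (log2 change 3.65 ± 0.25, SE, adjusted p = 3.7e-08, limma), and after D4 D6 replicate 2 alone stood apart. Usp18, which removes Isg15 and dampens the receptor, rose from 1.81 and 1.29 to 29.4 and 23.7 CPM, and Herc6, the mouse ligase for Isg15, from 4.27 and 4.81 to 19.6 and 18.6. None of these 3 was called between D4 and D8. The ADP-ribosylation group of Parp9, its partner Dtx3l and Parp14 rose by 2.12, 2.05 and 3.20 between D2 and D4. Dtx3l rose further, from 58.7 and 52.1 CPM on D4 to 68.8 and 72.8 on D8. Parp9 and Dtx3l overlap by 682 bases on opposite strands, so reads there cannot be assigned to either without strand.

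The remaining 7 members rose between D2 and D4, with a median of 1.98, and 6 of them rose again between D4 and D8. Lgals3bp, a secreted glycoprotein, was at 53.5 and 66.9 CPM on D2, 215 and 173 on D4, 235 and 435 on D6, and 316 and 307 on D8. Per kilobase of exons it had the highest mean of all members on every day, 21.1 CPM per kilobase on D2 and 109.5 on D8. Bst2, the tether that holds budding virus at the cell surface, was at 7.39 and 11.0, 49.0 and 30.2, 44.95 and 97.9, then 72.0 and 65.6 CPM. Ifi27, a small induced membrane protein, climbed by steps, at 11.9 and 12.7, 28.1 and 23.6, 38.0 and 38.6, then 53.1 and 49.2 CPM, with no overlap between any days. Ifi35 and Xaf1 rose by 0.57 and 0.74 between D4 and D8, Rtp4 by 0.56, and Ifi44 was at 49.3 and 38.6 CPM on D4 and 40.9 and 46.9 on D8. Rtp4 overlaps Masp1 on the opposite strand, and Masp1 reached 311.5 CPM, against 1.64 to 62.1 CPM for Rtp4.

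From D4 to D8 as a whole, members moved in both directions, at shares not far from those of all tested genes. The single steps, given further below, lay further from the shares of all tested genes. Between D4 and D8, 17 rose and 9 fell, where 30.7% of all tested genes rose and 18.3% fell. With median-of-ratios scaling 15 members rose and 11 fell, against 22.1% and 24.7% of all tested genes. With quantile normalization 15 rose and 9 fell, against 22.3% and 25.7%. Without these scalings the median was 0.06, against 0.07 over all tested genes. Those that fell without them were Ifit2, Oasl1, Mx1, Ifit3b, Ifit3, Rsad2, Mx2, Samhd1 and Stat2, by 1.21 down to 0.23. The largest rises were Oas2, Oas1a, Oas3, Zbp1, Ifi27 and Bst2, by 2.72 down to 0.82. Without D8 replicate 1 the median was 0.13, against 0.06 over all tested genes, and only the falls of Ifit2, Ifit3, Ifit3b and Mx2 were still called. The median was -0.00 against 0.05 without D4 replicate 2, and 0.01 against 0.08 without D8 replicate 2. In each of these settings fewer rises were called, among the members and over all tested genes.

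**Figure D4:**
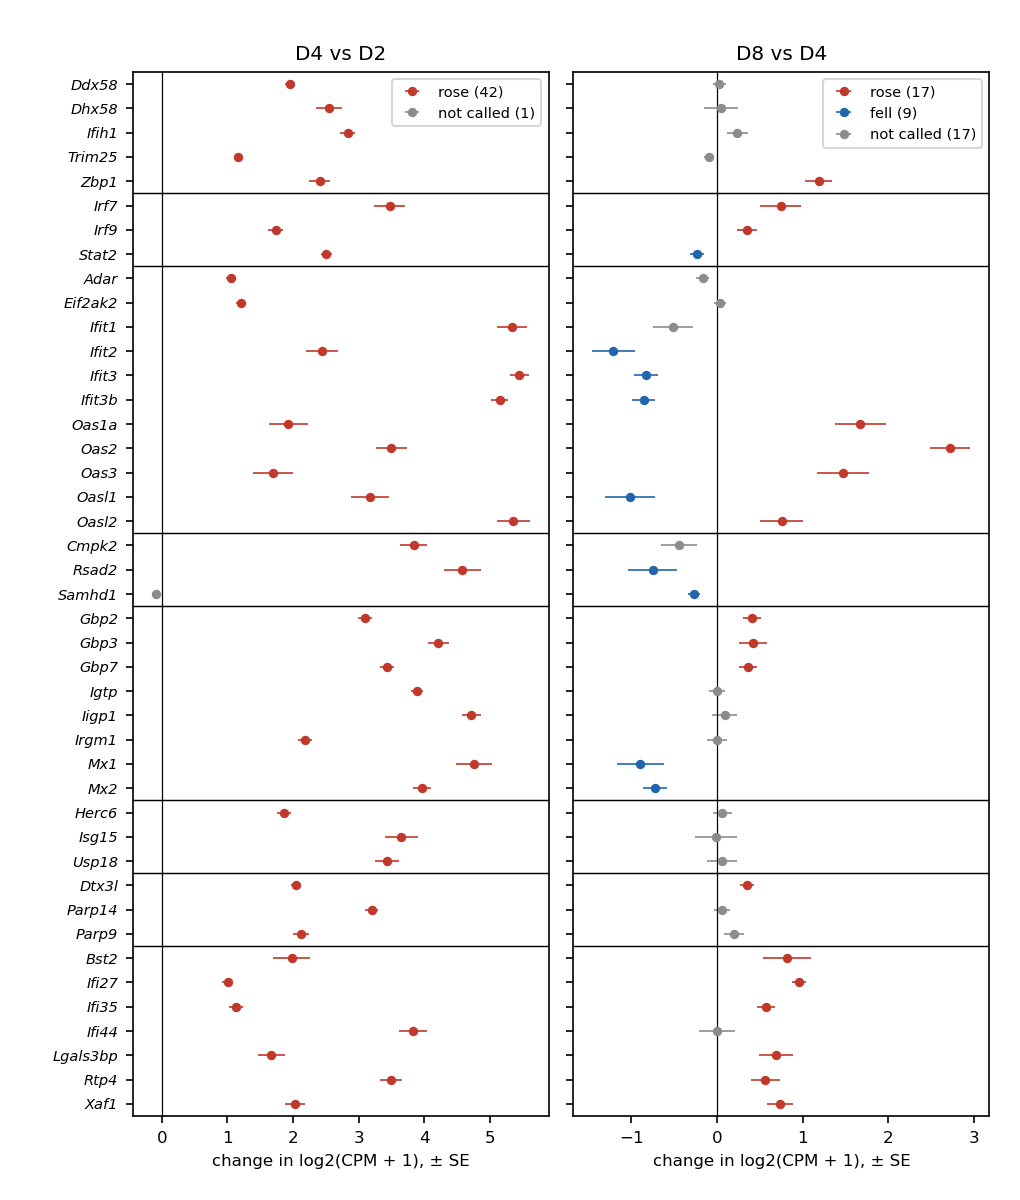
Change in log2(CPM + 1) of each member, with its SE, for D4 against D2 (left) and D8 against D4 (right), grouped by role and coloured by the limma call. On the left 42 members lie to the right of 0, and on the right 17 rose, 9 fell and 17 were not called.

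By single steps, 18 members rose and 0 fell between D4 and D6, where 25.2% of all tested genes rose and 12.6% fell (at an unadjusted p under 0.05 in limma, 23 members rose and 1 fell). With median-of-ratios scaling 15 members rose and 1 fell, against 17.1% and 19.4% of all tested genes. With quantile normalization 15 rose and 1 fell, against 17.5% and 19.2%. Without these scalings the median was 0.34, against 0.07 over all tested genes. The calls ranged from Oas2 at 2.43 to Parp9 at 0.34, and 16 of the 18 were also called as risen between D4 and D8, 2 comparisons that share the D4 libraries. Between D6 and D8, 1 member rose and 10 fell, where 4.72% of all tested genes rose and 4.39% fell, and the median was -0.16 against -0.00 over all. Ifi27 rose by 0.41, and Mx1 (-1.19), Rsad2 (-1.16), Ifit2 (-0.85), Cmpk2 (-0.82), Ifit3b (-0.65), Ifit3 (-0.63), Mx2 (-0.59), Stat2 (-0.29), Dtx3l (-0.28) and Adar (-0.27) fell. All of these calls were lost without D8 replicate 1, and most of them without D6 replicate 2. In both settings fewer genes were called over all tested genes too. The members' median from D6 to D8 was then -0.11 without D8 replicate 1 and 0.06 without D6 replicate 2, against -0.00 over all tested genes in both. Without D6 replicate 2, Mx1 (-1.41) was still called as fallen, and Oas1a, Oas2 and Oas3 were called as risen. Between D4 and D6 the median was 0.12, against 0.07 over all tested genes, without D6 replicate 2. It was 0.25 against 0.05 without D4 replicate 2. In both settings fewer rises were called, among the members and over all tested genes. Over the whole span from D2 to D8, 42 members rose and Samhd1 fell, where 47.3% of all tested genes rose and 23.1% fell (35.4% and 34.5% with median-of-ratios scaling, and 31.4% and 38.3% with quantile normalization). The median was 3.24, against 0.17 over all tested genes. A difference between any days was called for all 43 members and for 80.4% of all tested genes. The highest mean was on D6 for 31 members, on D4 for 6, on D8 for 5 and on D2 for Samhd1. The same was not counted over all tested genes. The D6 means rest in part on replicate 2, in which 38 members were higher than in replicate 1.

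Libraries of the same day parted in many members. On D6, 14 of the 43 members were at least 1.5 times higher in replicate 2, against 1.5% of all tested genes, and 0 were so in replicate 1, against 1.29%. The 14 were Oas1a, Oas2, Oas3, Oasl2, Isg15, Irf7, Dhx58, Usp18, Gbp3, Ifi44, Bst2, Rtp4, Zbp1 and Lgals3bp. In all, 38 members were higher in D6 replicate 2, with a median log2(CPM + 1) difference of 0.33, and the 5 that were lower were Ifit2, Mx1, Oasl1, Rsad2 and Cmpk2. On D8, 6 members were at least 1.5 times higher in replicate 2, against 1.13% of all tested genes, and 0 in replicate 1, against 1.27%. These 6 were Ifit1 and the 5 that were lower in D6 replicate 2. On D4, replicate 1 was at least 1.5 times higher for Bst2 and Oasl2, against 1.63% of all tested genes, and replicate 2 for 0 members, against 1.38%. In all, 35 members were lower in D4 replicate 2, with a median difference of -0.23, against -0.02 over all tested genes. In D8 replicate 2, 35 members were higher, with a median of 0.10, against -0.00 over all tested genes. Of all tested genes, 43.4% were higher in replicate 2 on D4, 47.9% on D6 and 49.2% on D8. On D2, replicate 1 was so for Ifit1, Mx1, Oas3, Oasl1, Rsad2 and Cmpk2, against 1.8% of all tested genes, and replicate 2 for 1 member, against 2.11%. Several of these D2 ratios rest on few reads: 2.2 and 1.1 for Oas3, 7 and 3 for Oasl1, 15 and 1 for Mx1, and 29 and 6 for Rsad2. Cmpk2 had 29 and 15 reads and Ifit1 85 and 36.5. Of 61 other interferon-stimulated genes, 9 were at least 1.5 times higher in D6 replicate 2 and 1 in D6 replicate 1. On D8, 3 of the 61 were so in replicate 2 and 0 in replicate 1, and on D4, 0 in replicate 2 and 5 in replicate 1. Macrophage markers summed to 150.2 CPM in D6 replicate 1 and 166 in replicate 2, and to 131 and 115 on D8, and fibroblast markers to 31607 and 34946, and to 30854 and 33915. The part of other cell types in these differences was not tested.

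**Figure D5:**
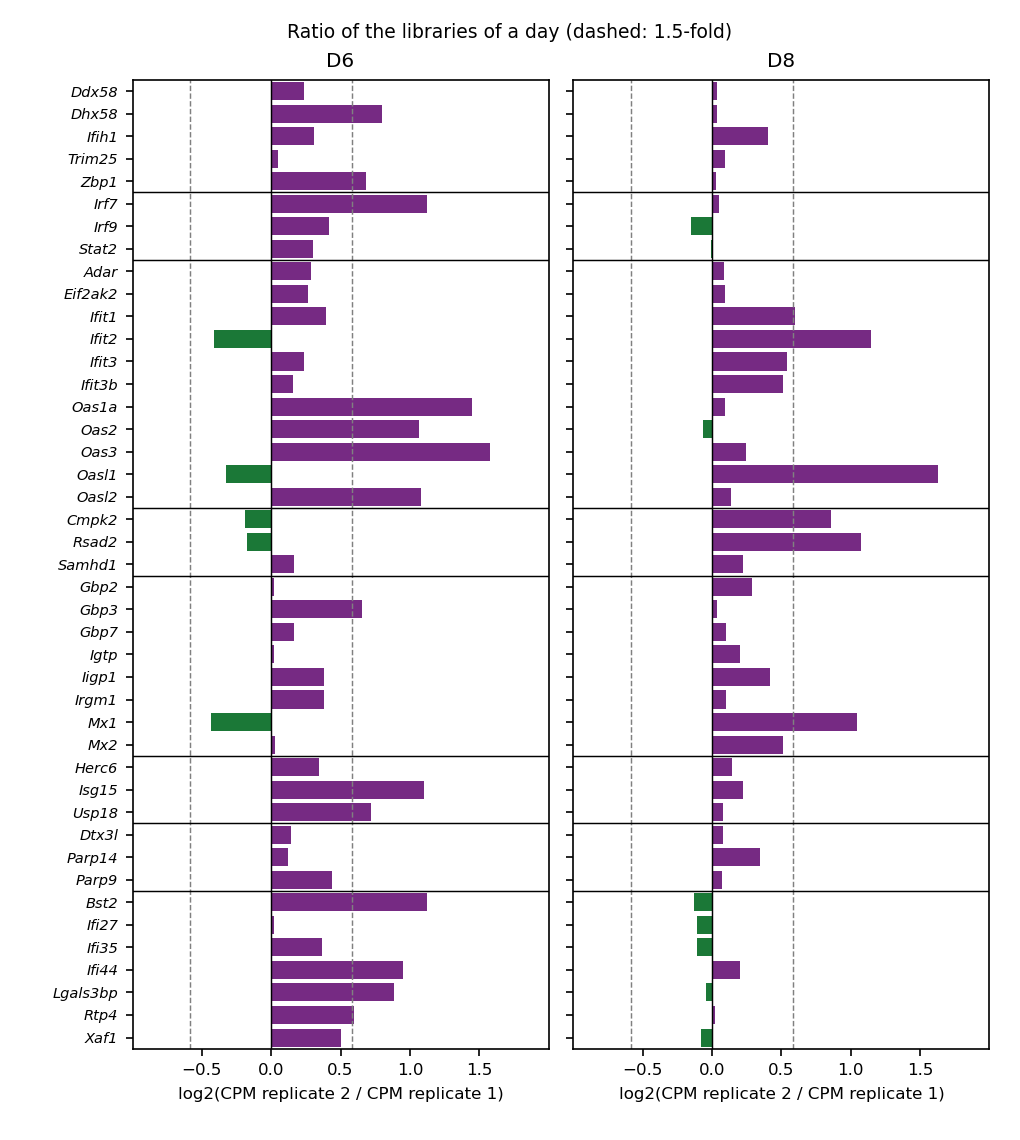
Log2 ratio of replicate 2 to replicate 1 in CPM for each member on D6 (left) and D8 (right), with purple bars where replicate 2 is higher, green where it is lower and dashed lines at a ratio of 1.5. On D6, 14 bars pass the right line, and on D8, 6 do, among them Oasl1, Ifit2, Rsad2 and Mx1.

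Other genes of the pathway were read from lists that hold no member. Over all tested genes, 40.9% rose and 21.7% fell between D2 and D4, and 30.7% and 18.3% between D4 and D8. Of 66 other interferon-stimulated genes, 61 were tested, of which 58 rose and 1 fell between D2 and D4, with a median of 1.65. Cxcl10, a chemokine for T cells, was at 2.28 and 1.47 CPM on D2, 55.1 and 66.0 on D4, 44.7 and 27.8 on D6, and 7.50 and 28.9 on D8. Its libraries on D4 lay above all others, and it fell by 1.94 between D4 and D8 (adjusted p = 0.0015, limma). Ifit1bl1, a neighbour of the Ifit genes, was likewise at 3.78 CPM in D8 replicate 1 and 12.2 in replicate 2. Irgm2 moved from 3.81 and 3.68 to 57.4 and 45.5 CPM between D2 and D4. Between D4 and D8, 31 of the 61 rose and 10 fell, with a median of 0.37. Of 12 inhibitors of interferon signalling and nucleases, 4 rose and 1 fell between D2 and D4. The one that fell was Tnfaip3, an inhibitor of NF-kappaB, from 37.4 and 33.2 to 12.0 and 13.6 CPM, and Nlrx1, a mitochondrial inhibitor of RNA sensing, rose from 8.18 and 6.85 to 17.1 and 16.8. Of the 15 macrophage and haematopoietic markers tested, 3 rose and 1 fell between D2 and D4, while their sum was 109 and 147 CPM on D2 and 145 and 151 on D4.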

How the data were processed

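Values are CPM that the authors deposited in 1 table of 8 columns, 1 for each library (0 columns belonged to no sample). The table's name speaks of TPM, but each value is a multiple of a constant step within a library, the worth of a hundredth of a read, and 52.8% to 54.3% of the values above 0 came out as whole reads, within 0.02 hundredths. Trimmomatic 0.39, featureCounts and mm10 are named, per the submitters' processing notes; the sources used here do not give the aligner, the annotation or the strand setting. Symbols and coordinates came from GENCODE M21 (79 identifiers had no symbol), and promoter windows from RefSeq. The design had assumed normalized values, and its test was kept.

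The 15358 genes that reached 1 CPM in 2 or more libraries entered limma 3.58.1 (R 4.3.3) on log2(CPM + 1), with 1 mean per day, an intensity trend and 4 residual degrees of freedom, adjusted by Benjamini-Hochberg at 0.05 over all tested genes. The script was tested on simulated data. Tables and plots used Python 3.11.15. Alternatives were a pseudocount of 0.1, no filter, 2 scalings, no trend, a replicate block, each library left out and, added after seeing the data, D6 replicate 2 and D8 replicate 1 left out together. Members and lists were chosen with earlier results of these data known. The naming rule covered all members and, from each list, up to 6 called genes with the largest change between D2 and D4, plus Ifnb1, Ifnar1, Ifnar2, Irf1 and Irf3; a gene that the rule also always names is not reported here. The rule allows more genes than the text names. Ifnz and the overlapping genes Phrf1, Rnf31 and Masp1 were named after their values were seen. Likeness to the members was measured by Pearson correlation over 8 libraries. Replicates were compared before averaging, by chi-square per gene over genes with at least 20 reads in the pair. The mean was 1.38 on D2 and 3.75 to 5.61 on the other days. Over the members the median was 0.716 on D2, 12.0 on D4, 39.1 on D6 and 4.54 on D8. The D2 pair thus differed least, and these values do not settle whether its libraries were separate samples.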

Additional observations from a re-analysis of the deposited data

How the results depend on the processing

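The counts for D4 against D2 (42 rose), D8 against D2 (42 rose, 1 fell) and any day (43) were the same under all 15 alternatives, save that median-of-ratios scaling added 1 fall (Samhd1) between D2 and D4. Between D4 and D6 (18 rose, 0 fell), 6 rose with no filter, 1 fell with median-of-ratios scaling, 1 with quantile normalization and 1 with the replicate block, and 9 rose and 1 fell without both D6 replicate 2 and D8 replicate 1. Leaving out single libraries gave 9 to 26 rises and 0 to 2 falls. Between D6 and D8 (1 rose, 10 fell), 2 fell with a pseudocount of 0.1, and 0 rose and 0 fell with no filter, with no trend and without those 2 libraries. Single libraries left out gave 0 to 3 rises and 0 to 11 falls. Between D4 and D8 (17 rose, 9 fell), 8 rose and 3 fell with no filter, 10 rose with no trend, 5 fell without those 2 libraries, and single libraries left out gave 8 to 18 rises and 4 to 10 falls. Oas3 between D6 and D8 turned from -0.07 to 0.64 (adjusted p = 0.042, limma) without D6 replicate 2, and single libraries left out gave -0.78 to 0.64. More genes enter the adjustment with no filter, and for the other changes the cause was not tested. Over all tested genes, too, most settings with a library left out called fewer genes after D4. Replicate numbers did not pair the samples (correlations of -0.10 to 0.21 over 6 pairs of days), and the block, which gave 19 rises and 1 fall between D4 and D6, changed no other count. Cores before the start site only were found in 14 members in place of 17. Depth limits the ligands, and several members on D2, which rest on a few reads. Among these members are Oas3, Oas1a, Oasl1, Mx1, Mx2 and, in D2 replicate 2, Rsad2.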

Other observations

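Among tested genes that are no members, 10 had the profile most like the members' mean standardised level over the 8 libraries. By Pearson correlation, from 0.998 to 0.996, they were Ifi203, Uba7, Trim34a, Phf11a, Gpr108, Srbd1, Nppc, Ddx60, Phf11d and Casp8ap2. Of these, Ifi203, Trim34a, Ddx60 and Phf11d were also on the list of other interferon-stimulated genes. Ifi203, of the family of DNA-binding interferon-inducible proteins, was at 1.40 and 1.57 CPM on D2, 30.7 and 26.4 on D4, 36.4 and 47.7 on D6, and 34.3 and 40.2 on D8. Uba7, the enzyme that activates Isg15 for attachment, was at 2.63 and 2.81, 22.8 and 17.1, 22.4 and 27.8, then 18.7 and 21.8 CPM. Nppc, which encodes a natriuretic peptide, was at 2.48 and 2.29 CPM on D2 and 12.2 to 15.9 CPM in the later libraries. Gpr108 changed far less in CPM, from 42.7 and 42.8 on D2 to 50.9 and 52.5 on D8, since the measure reads the shape of a profile and not its size. The points share their libraries, and most of each profile is the step from D2 to the later days, so the values are a description.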
